A study of Mus musculus with 6 samples.

Results

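The genes described here are 10 genes of iron absorption and storage in the mouse small intestine: Slc11a2, Cybrd1, Slc40a1, Heph, Tfrc, Fth1, Ftl1, Aco1, Ireb2 and Epas1. They were taken by symbol from the deposited count table, which lists 33017 genes, and all 10 were found there and passed the filter on low counts. The table holds 6 poly-A RNA libraries of frozen small intestine, 3 labelled control and 3 labelled model. The series title names simulated microgravity and radiation and a protective compound, and the design text speaks of the effect of 2 factors. No library used here is labelled with the compound. The labels give no strain, age, dose or time, nor the stretch of intestine each library came from. The labels do not tie the libraries of a group to separate animals. The p-values therefore reflect how far these libraries scatter, which need not be the scatter between animals.

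Dietary iron enters the body mainly in the duodenum. At the brush border the reductase Dcytb, encoded by Cybrd1, reduces ferric iron, and the transporter DMT1, encoded by Slc11a2, carries the ferrous ion into the enterocyte. There the iron is stored in ferritin, a shell of heavy (Fth1) and light (Ftl1) chains, or leaves across the basolateral membrane through ferroportin (Slc40a1) with the help of the ferroxidase hephaestin (Heph). The transferrin receptor (Tfrc) takes up iron from the blood side, above all in dividing cells. Control of these genes runs through the RNA-binding iron regulatory proteins (Aco1 and Ireb2), which attach to a hairpin called the iron-responsive element, and through the oxygen-sensitive transcription factor HIF2α (Epas1), which is known to drive Slc11a2, Cybrd1 and Slc40a1 in the enterocyte.

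The hairpin itself is shown because some of these mRNAs share it. A site in the leader of an mRNA lets the regulatory proteins block translation, and a site in the tail protects the mRNA from decay. The search looked on the transcript strand for a C, 5 bases, the loop CAGTGN and 5 bases that pair with the first 5 (Watson-Crick or G-U), in the untranslated regions of the GENCODE M21 protein-coding transcripts (GRCm38). It found 4 of the 10 genes: Fth1, Ftl1 and Slc40a1 in the 5′ untranslated region and Tfrc, 4 times, in the 3′ untranslated region. Among all genes with such a region, 0.151% held a match in the 5′ and 0.615% in the 3′ untranslated region. When 1 extra unpaired base was allowed on the 3′ side of the stem, a change made after the first search, Epas1 (5′) and Slc11a2 (3′) matched too, against 0.394% and 1.7% of all genes. In the lines below the capitals mark the loop, the sequence is written 5′ to 3′ as DNA, and positions are those of GRCm38, which is not the build of the authors' alignment.
Fth1, 5′ untranslated region, chr19:9982732-9982761, plus strand: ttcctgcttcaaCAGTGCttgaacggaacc
Ftl1, 5′ untranslated region, chr7:45459778-45459807, minus strand: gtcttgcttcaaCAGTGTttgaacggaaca
Slc40a1, 5′ untranslated region, chr1:45925464-45925493, minus strand: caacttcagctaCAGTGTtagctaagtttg
Epas1, 5′ untranslated region, chr17:86753768-86753797, plus strand: tacaatcctcggCAGTGTcctgagactgta
Slc11a2, 3′ untranslated region, chr15:100395152-100395181, minus strand: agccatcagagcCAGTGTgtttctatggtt
Tfrc, 3′ untranslated region, chr16:32631219-32631248, plus strand: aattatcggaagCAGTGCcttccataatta
Tfrc, 3′ untranslated region, chr16:32631598-32631627, plus strand: cattatcgggagCAGTGTcttccataatgc
Tfrc, 3′ untranslated region, chr16:32631663-32631692, plus strand: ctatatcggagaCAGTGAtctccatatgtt
Tfrc, 3′ untranslated region, chr16:32631710-32631739, plus strand: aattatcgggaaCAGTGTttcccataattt
The Fth1 and Ftl1 sites were identical at 26 of the 30 bases shown, and the Fth1 and Slc40a1 sites at 13. Pairs of the 4 Tfrc sites were identical at 18 to 25 of 30 bases. In Slc11a2 the site lies in 1 of its annotated protein-coding transcripts, and gene-level counts do not separate that form from those without it. No match was found in the untranslated regions of Cybrd1, Heph, Aco1 and Ireb2, which says only that these letters are not there.

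Library totals ran from 35007515 to 45285564 counts. Levels are given as CPM, the usual scaling of counts to a common library total, here with TMM factors. The labelled tissue was checked against 10 enterocyte markers, whose summed level was 14920 to 16150 CPM in control and 14690 to 20130 CPM in model libraries, with Fabp2 listed at 0 in all 6. The brush border gene Vil1 was steady, between 1810 and 2389 CPM, while the brush border phosphatase Alpi ran from 276 CPM in control 3 to 7417 CPM in model 1 and the trehalase gene Treh from 77.8 to 1089 CPM in the same libraries. These examples are named after their values were seen. Control 3 stood apart from the other libraries in position along the gut. The summed level of 8 proximal small intestine markers was 8.53 CPM in control 3 against 1936 and 2868 CPM in the other controls and 1388 to 2788 CPM in the model group, with no marker at 0 in all libraries. The summed level of 8 distal markers was 2364 CPM in control 3, 102 and 158 CPM in the other controls and 115 to 241 CPM in the model group. Each was highest in control 3, with Fabp6 (1166 CPM) and Slc10a2 (648 CPM) the largest there. The distal marker Fgf15 was only at 0.142 CPM in control 3 and at 0 elsewhere. Fabp6, Slc10a2 and Fgf15 are named after their values were seen. Exocrine pancreas genes summed to 5953 CPM in model 3, with 26.9 CPM the highest of the rest, and B cell genes to 301 and 187 CPM in control 3 and model 3, with 43.5 CPM the highest of the rest. Dietary iron is taken up mainly in the duodenum. For this reason the fold changes of the 10 genes and the counts of the iron lists are given with and without control 3. In these bulk samples fewer cells of a type and less RNA per cell cannot be told apart.

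None of the 10 iron genes passed the test of model against control. All 10 had a log2 fold change above 0, with a median of 0.68, where 48.2% of all tested genes were above 0 and the median of all tested genes was -0.018. Without control 3 the number was 8 of 10, with a median of 0.47, against 53.1% of all genes tested in that fit. Without control 3, the lowest library for 8 of these genes, and model 1, the highest for 5, it was 6 of 10, with a median of 0.17. This last fit was added after seeing the data. edgeR's quasi-likelihood test called 0 of 15904 genes (0% called, smallest Benjamini-Hochberg adjusted p 0.851), and 765 genes, 4.81% of those tested, had an unadjusted p under 0.05. Of these, 1.82% of tested genes were higher and 2.99% lower in model tissue. Among the 765 was 1 iron gene, Epas1, which was higher. DESeq2, run as an alternative, called 25 genes (0.158%) and 0 of the iron genes, of which 4 (Slc11a2, Cybrd1, Epas1 and Ireb2) had an unadjusted p under 0.05, against 6.48% of all tested genes. Markers of cell types were read from the same fit. Of 9 tested enterocyte markers 7 had a log2 fold change above 0 (6 of 9 without control 3), with a median of 0.062. The glucose transporter Slc5a1 was at 0.96 (SE 0.39) and above every control in all model libraries. Cdh1, at -0.17 (SE 0.23), was below every control in all model libraries. Anpep was at -1.03 (SE 0.52), or -0.26 (SE 0.32) without control 3. These genes are named after their values were seen. Of 8 smooth muscle markers 0 were above 0 (1 of 8 without control 3), with a median of -0.73, none was at 0, and their summed level was 1359 to 2292 CPM in control and 1029 to 1376 CPM in model libraries. The smooth muscle genes Myh11 (-0.90, SE 0.29) and Synpo2 (-0.80, SE 0.26) were below every control in all model libraries. No marker passed the test, and the part of the mix of cells in the values of the iron genes was not tested. Model libraries lay above all control libraries for 1 of the 10 genes, against 4.73% of all tested genes, and below them for none of the 10, against 6.33%.

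**Figure D1:**
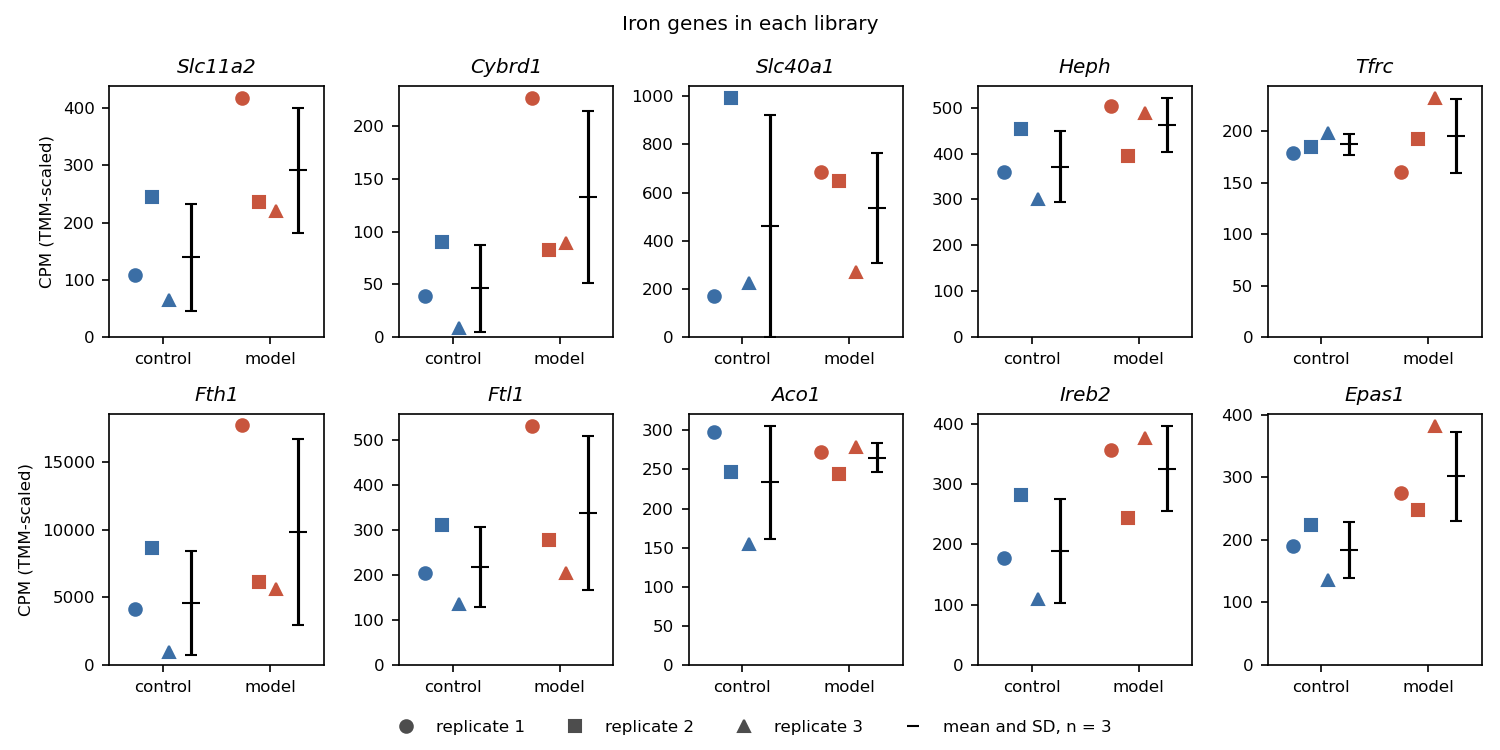
Level of each of the 10 iron genes in TMM-scaled CPM (vertical axis, a separate scale per gene) in the 3 control (blue) and 3 model (red) libraries, with the mean and SD of each group in black. Fth1 runs from 956 CPM in control 3 to 17754 CPM in model 1, while Tfrc stays between 160 and 232 CPM.

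Of the brush border pair, Cybrd1 had the largest log2 fold change of the 10 genes, and neither gene passed the test. Slc11a2, the importer, was at 108, 245 and 65.0 CPM in control 1 to 3 and at 417, 235 and 221 CPM in model 1 to 3. Control 1 and control 3 lay below every model library, but control 2 exceeded model 2 and model 3, so the groups overlapped. Mean levels were 139 ± 94.0 and 291 ± 110 CPM in control and model tissue (SD, n = 3), and the log2 fold change was 1.06 (SE 0.51, edgeR adjusted p = 0.851). Without control 3 the log2 fold change was 0.74 (SE 0.45), and without control 3 and model 1 it was 0.36. Without control 2 it was 1.77. The 3 model libraries then lay above the remaining controls, but the share of all tested genes with such groups was not computed for that fit.

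Cybrd1, the reductase, had 39.5, 90.7 and 8.53 CPM in control 1 to 3 and 227, 82.5 and 89.1 CPM in model 1 to 3. Model 1 was the highest and control 3 the lowest library by a wide margin, and control 2 lay above model 2 and model 3. Its highest library exceeded its lowest 26.7-fold, a wider log2 range than in 98.0% of the tested genes with counts in all 6 libraries, whose median range was 2.21-fold. The log2 fold change was 1.52 (SE 0.79, edgeR adjusted p = 0.851), with mean levels of 46.3 ± 41.5 and 133 ± 81.7 CPM (SD, n = 3). Leaving out control 3 gave 1.05 (SE 0.56), leaving out model 1 gave 0.89 and leaving out both gave 0.39.

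Both uptake genes were lowest in the library with distal markers. Gata4, a transcription factor of the proximal intestine, was at 1.90 CPM in control 3 and between 214 and 255 CPM in the other 5 libraries, and Fabp6, the ileal bile acid binding protein, was at 1166 CPM in control 3 and at most 0.285 CPM elsewhere. These markers are named after their values were seen. The part of gut position in the differences between model and control was not tested. Among the other 5 libraries, which all had at least 214 CPM of Gata4, Cybrd1 ran from 39.5 CPM in control 1 to 227 CPM in model 1.

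Of the basolateral export genes neither passed the test. Slc40a1 had another order of libraries than the uptake genes, while Heph, like them, was lowest in control 3 and highest in model 1. Ferroportin, Slc40a1, was at 169, 993 and 224 CPM in control 1 to 3 and at 687, 647 and 272 CPM in model 1 to 3. Control 2 was the highest of all libraries, and model 3 lay beside the low controls, so that the groups overlapped widely. With mean levels of 462 ± 461 and 535 ± 229 CPM (SD, n = 3), its log2 fold change was 0.21 (SE 0.70, edgeR adjusted p = 0.947). The sign depended on single libraries: leaving out control 3 gave -0.10, control 1 gave -0.18, model 1 gave -0.008 and control 2 gave 1.47.

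The 3 libraries highest in Slc40a1 were also the 3 highest in Muc6 and Tff2, a mucin and a trefoil peptide made by the Brunner's glands of the first part of the duodenum and by the stomach. Muc6 was at 61.1, 164 and 52.1 CPM in control 2, model 1 and model 2, while the other 3 libraries reached 0.513 CPM. Tff2 was at 64.7, 423 and 23.7 CPM in the same 3 libraries, at 16.9 CPM in model 3 and under 0.1 CPM in control 1 and control 3. Both are on the list of proximal markers and are singled out here after their values were seen. Of the rest of that list, Pdx1 had the same 3 highest libraries, while Gata4, Onecut2, Lct, Cck and Gip did not. Lct was highest, at 2255 CPM, in control 1, the library lowest in Slc40a1. Macrophages also use ferroportin to return iron. Of 10 macrophage markers 5 had a log2 fold change above 0 (8 without control 3), their summed level was 417 to 591 CPM in control and 571 to 726 CPM in model libraries, none was at 0, and the lowest sum was that of control 2. The part of either in the Slc40a1 values was not tested.

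**Figure D2:**
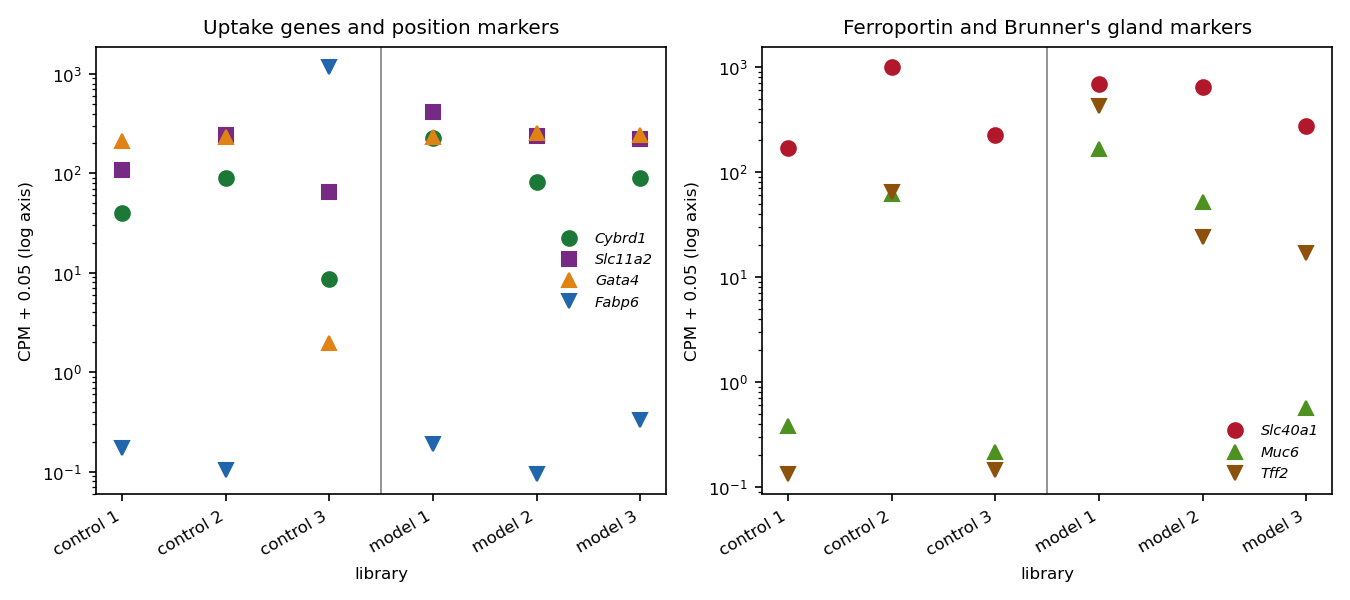
Levels per library in CPM plus 0.05 on a log axis: left, the uptake genes Slc11a2 and Cybrd1 with a proximal (Gata4) and an ileal (Fabp6) marker, right, Slc40a1 with the Brunner's gland markers Muc6 and Tff2. Control 3 has 1.90 CPM of Gata4 and 1166 CPM of Fabp6, and the libraries with at least 52.1 CPM of Muc6 are those with at least 647 CPM of Slc40a1. Most other proximal markers, not shown at right, do not share this order.

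Heph, the membrane-bound ferroxidase that works with ferroportin, varied little. It was at 359, 454 and 302 CPM in the controls and 503, 394 and 489 CPM in the model group, with control 2 above model 2. Its log2 fold change was 0.31 (SE 0.25, edgeR adjusted p = 0.851), and 0.20 (SE 0.25) without control 3. The log2 ratio of Slc11a2 to Slc40a1 within a library, which does not depend on library scaling, was -1.48 ± 0.74 in control and -0.83 ± 0.59 in model tissue (SD, n = 3), with control 1 (-0.65) among the model values. The difference of the group means was 0.66 with all libraries and 0.51 without control 3.

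Tfrc, the transferrin receptor, was the steadiest of the 10. It measured 179, 185 and 198 CPM in the controls and 160, 193 and 232 CPM in the model group, so model 1 was the lowest and model 3 the highest of all 6. Its log2 fold change was 0.060 (SE 0.21, edgeR adjusted p = 0.951), or 0.12 (SE 0.24) without control 3, and the sign turned with scaling by library size alone (-0.13) and by the upper quartile (-0.016). A fold between its highest and lowest library of 1.45 was wider than in 14.5% of the tested genes. Dividing cells depend on this receptor. The summed level of 10 proliferation genes was 806 to 864 CPM in control and 586 to 866 CPM in model libraries, and lowest in model 1. Single genes of the list differed from the sum: Pcna was highest in model 1, at 103 CPM, and Mcm6, Cdk1 and Birc5 were lowest in model 3. Of the 10 proliferation genes 2 had a log2 fold change above 0 (1 without control 3), and none was at 0. Erythroid genes, whose cells carry the most transferrin receptor, summed to 8.50 to 20.9 CPM in control and 7.69 to 11.8 CPM in model libraries, with 0 of 5 tested markers above a log2 fold change of 0 (1 without control 3) and Alas2 at 0 in all libraries. The part of these cells in the Tfrc values was not tested.

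Ferritin heavy chain Fth1 was the most abundant of the 10 transcripts in each library and among the most variable. It was at 4157, 8672 and 956 CPM in the controls and at 17754, 6141 and 5631 CPM in the model group. Model 1 held 18.6 times the level of control 3, and control 2 lay above model 2 and model 3. The log2 fold change was 1.10 (SE 0.81, edgeR adjusted p = 0.851), with mean levels of 4595 ± 3877 and 9842 ± 6857 CPM (SD, n = 3). Leaving out control 3 gave 0.64 (SE 0.62), leaving out model 1 gave 0.36 and leaving out both gave -0.13.

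The light chain Ftl1 was at 204, 312 and 136 CPM in the controls and at 532, 278 and 205 CPM in the model group, with model 1 highest and control 3 lowest. Its log2 fold change was 0.64 (SE 0.44, edgeR adjusted p = 0.851), 0.41 (SE 0.44) without control 3 and -0.098 without control 3 and model 1. Ferritin chains have many processed pseudogene copies, and the authors' treatment of reads that map to several places is not given, so the level of Ftl1 against Fth1 is uncertain. The log2 ratio of Fth1 to Ftl1 was 4.35, 4.80 and 2.82 in the controls and 5.06, 4.46 and 4.78 in the model libraries, with control 3 below all others, and the difference of the group means was 0.78 with all libraries and 0.20 without control 3. The log2 ratio of Tfrc to Fth1 was -4.54, -5.55 and -2.27 in the controls and -6.79, -4.99 and -4.60 in the model libraries. Here control 3 was the highest and model 1 the lowest, with the other 4 libraries between them, and the difference of the group means was -1.34 with all libraries and -0.41 without control 3.

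**Figure D3:**
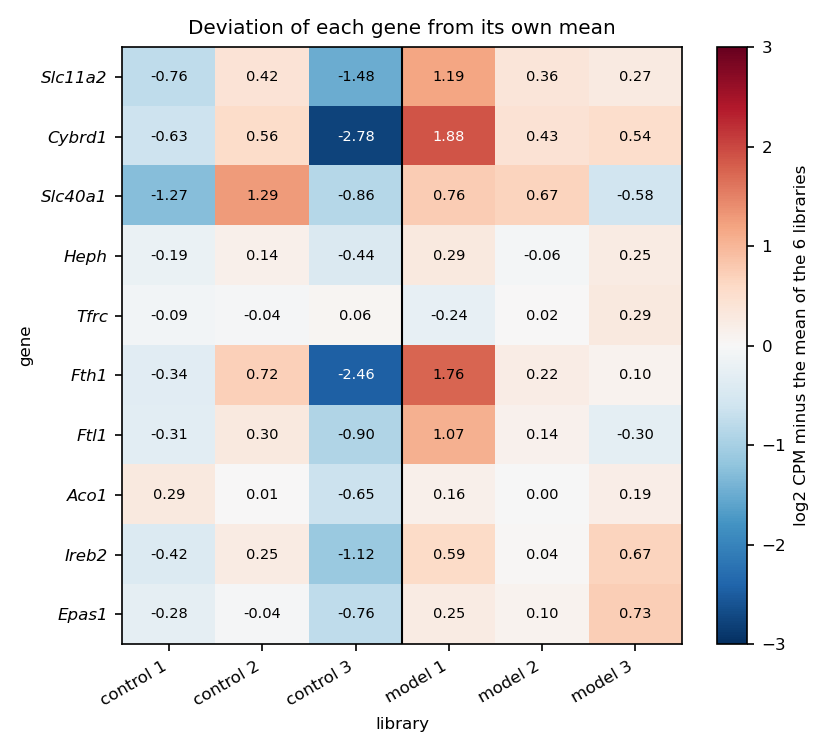
Log2 CPM (plus a pseudocount of 0.5) of each iron gene minus its own mean over the 6 libraries, with red above and blue below the mean and the value in each cell. Control 3 has the lowest value for 8 of the 10 genes and model 1 the highest for 5, and the largest deviations are those of Cybrd1 (-2.78 and 1.88) and Fth1 (-2.46 and 1.76).

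The genes of the iron regulatory proteins, Aco1 and Ireb2, did not pass the test. Aco1, which is a cytosolic aconitase when iron is plentiful, was at 298, 247 and 155 CPM in the controls and at 273, 244 and 279 CPM in the model group. The model libraries lay within the range of the controls, and its log2 fold change was 0.18 (SE 0.28, edgeR adjusted p = 0.882) with all libraries and -0.024 (SE 0.22) without control 3. Ireb2, whose protein is broken down when iron is plentiful, was at 177, 281 and 109 CPM in the controls and at 356, 244 and 376 CPM in the model group. Only control 2 reached into the model range, above model 2, and the log2 fold change was 0.79 (SE 0.37, edgeR adjusted p = 0.851), or 0.52 (SE 0.31) without control 3. The log2 ratio of Aco1 to Ireb2 was 0.75, -0.19 and 0.51 in the controls and -0.38, -0.0019 and -0.43 in the model libraries, with control 2 below model 2, and the difference of the group means, -0.63, was between -0.44 and -0.91 when each library was left out.

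Epas1, which encodes HIF2α, was the single iron gene whose groups did not overlap. It was at 191, 224 and 136 CPM in the controls and at 274, 248 and 383 CPM in the model group, so that the lowest model library lay just above the highest control. The means were 184 ± 44.4 and 302 ± 71.2 CPM (SD, n = 3), and Epas1 had a log2 fold change of 0.72 (SE 0.28). In edgeR's quasi-likelihood test the unadjusted p was 0.0346, rank 489 of 15904 genes, and the adjusted p was 0.851. Groups that do not overlap were found for 11.1% of all tested genes. The log2 fold change was 0.56 (SE 0.27) without control 3, 0.51 without model 3, and 0.33 without control 3 and model 3, a fit added after seeing the data. Endothelial cells are rich in HIF2α: the summed level of 8 endothelial markers was 112 to 265 CPM in control and 149 to 235 CPM in model libraries, 4 of 8 had a log2 fold change above 0 (6 without control 3), and none was at 0. Their part in the Epas1 values was not tested.

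**Figure D4:**
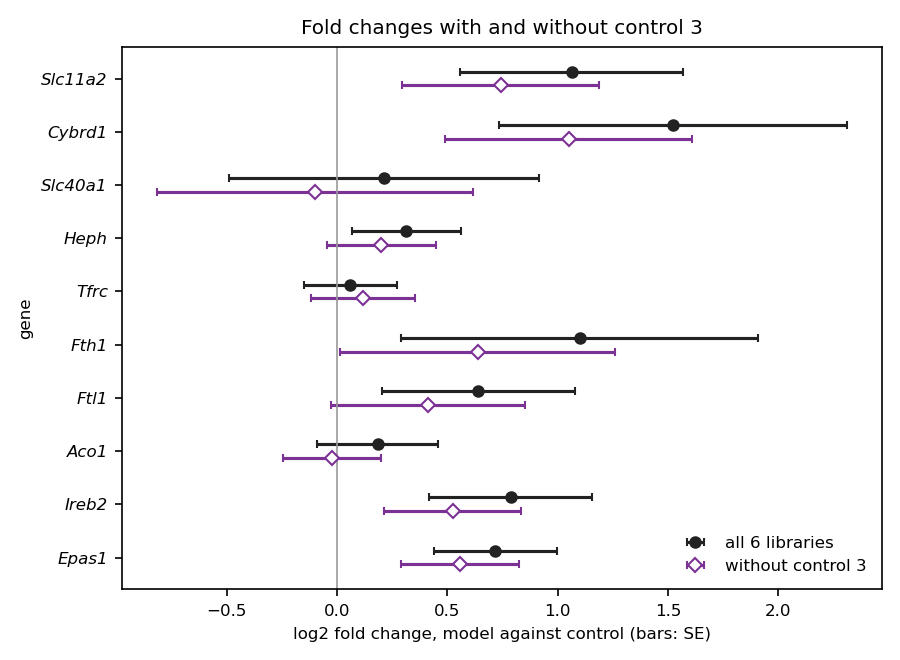
Log2 fold change of model against control for each iron gene (horizontal axis, bars are SE) from edgeR with all 6 libraries (filled circles) and without control 3 (open diamonds). All 10 filled circles lie above 0, and without control 3 Slc40a1 (-0.10) and Aco1 (-0.024) lie below it.

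Beyond the 10 genes, 91 genes of 10 lists on iron handling and its control were examined, of which 82 could be tested. None was called. A log2 fold change above 0 was found for 48.2% of all tested genes, or 53.1% without control 3. Of the 82, 58 were above 0 (59 without control 3), and their median was 0.21. An unadjusted p under 0.05 was found for 7 of them (8.54%, against 4.81% of all tested genes), and the groups did not overlap for 6 higher and 1 lower gene, 8.54% of the 82 against 11.1% of all tested genes. The number above 0 was 51 without model 1. Without control 3 and model 1, a fit added after seeing the data, it was 42. The number above 0 was 41 of 82 when libraries were scaled by size alone, a scaling that moved the median of all genes to -0.21.

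In the oxygen-sensing list, which holds the partner, hydroxylases and ubiquitin ligase subunit of the HIF factors, 4 of 6 tested genes were above 0 (3 of 6 without control 3, 1 of 6 with scaling by library size alone), with a median of 0.062. Its most abundant genes were Egln2, a prolyl hydroxylase, at 85.6 ± 9.08 and 101 ± 20.9 CPM in control and model tissue, and the asparaginyl hydroxylase Hif1an at 84.9 ± 11.7 and 89.8 ± 10.8 CPM (SD, n = 3). Hif1a, the sister gene of Epas1, had 0 counts in each of the 6 libraries, a value that may come from the counting and is not taken as a missing transcript. HIF target genes outside iron metabolism had 11 of 11 tested genes above 0 (11 of 11 without control 3, 9 of 11 without model 1, 10 of 11 with scaling by library size alone), a median of 0.49 and 0 calls. The most abundant were the glycolytic enzyme Pgk1, at 383 ± 125 and 536 ± 139 CPM, and Pfkfb3, a regulator of glycolysis, at 136 ± 12.8 and 236 ± 87.9 CPM (SD, n = 3). The groups did not overlap for 1 of the 11, against 11.1% of all tested genes. This was Vegfa, the endothelial growth factor, named after its values were seen, at 92.8, 114 and 77.7 CPM in control and 129, 159 and 131 CPM in model libraries (log2 fold change 0.56, SE 0.21, and 0.45, SE 0.23, without control 3).

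Of the haem handling genes 13 of 17 tested were above 0, with a median of 0.27. Without control 3 the number was 12 of 17, and without control 3 and model 1 it was 6 of 17. Slc46a1, the proton-coupled folate transporter that also takes up haem, was at 394, 507 and 11.8 CPM in the controls and 979, 462 and 514 CPM in the model group, with control 3 far below the rest, and the log2 fold change of Slc46a1 was 1.10 (SE 1.04), or 0.55 (SE 0.39) without control 3. Abcg2, an efflux pump for porphyrins among other compounds, was at 212 ± 81.5 and 184 ± 53.9 CPM (SD, n = 3), with a log2 fold change of -0.21 (SE 0.34) that was 0.16 (SE 0.30) without control 3. Flvcr1, a membrane transporter linked to haem export and choline uptake, did not overlap between the groups, at 60.2, 55.8 and 29.0 CPM in control and 109, 87.6 and 125 CPM in model libraries. It had the smallest p of the iron genes outside the 10, with a log2 fold change of 1.15 (SE 0.31, edgeR unadjusted p = 0.00637, adjusted p = 0.851) and 0.90 (SE 0.23) without control 3, and is named after its values were seen.

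Transferrin cycle genes other than Tfrc had 6 of 11 above 0 (8 of 11 without control 3) and a median of 0.082. The most abundant gene Slc39a14, a zinc transporter that also carries iron not bound to transferrin, was at 173, 238 and 90.4 CPM in control and 279, 278 and 358 CPM in model libraries, without overlap (log2 fold change 0.87, SE 0.36, and 0.58, SE 0.26, without control 3). The endosomal sorting gene Snx3 followed, with a log2 fold change of 0.40 (SE 0.35). Ferritin handling genes outside the ferritin chains were above 0 in 3 of 3, also without control 3: the iron chaperone Pcbp1 at 0.27 (SE 0.25), the ferritin-degrading receptor Ncoa4 at 0.89 (SE 0.66), and Pcbp2. Ncoa4 was at 46.3 CPM in control 3 and between 163 and 423 CPM in the other libraries, and its log2 fold change without control 3 was 0.43 (SE 0.39). The list of iron regulatory protein control had 3 of 3 above 0 (3 of 3 without control 3, 1 of 3 with scaling by library size alone, and 1 of 3 without control 3 and model 1), with Fbxl5, the iron sensor that marks Ireb2 for breakdown, at 0.82 (SE 0.38), or 0.55 (SE 0.33) without control 3, and Skp1 at 0.26 (SE 0.36).

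Mitochondrial iron and iron-sulphur cluster genes had 8 of 12 above 0 (7 of 12 without control 3, 3 of 12 with scaling by library size alone, and 3 of 12 without control 3 and model 1), with a log2 fold change of -0.48 (SE 0.32) for the mitochondrial iron importer Slc25a37, which was -0.066 (SE 0.24) without control 3. In the hepcidin axis, the hormone system that closes ferroportin, Hamp, Hamp2 and Hjv were listed at 0 in all libraries, and 2 of 6 tested genes were above 0 (3 without control 3, 4 without control 3 and model 3), with Furin at 0.34 (SE 0.26) and Neo1 at -0.22 (SE 0.20). Of the ferroxidases besides Heph, Cp was at -0.007 (SE 0.57), with a sign that turned in several settings, and Hephl1 was too low to be tested. In the list of ferroptosis and iron-linked defence 8 of 12 were above 0 (8 without control 3, 5 without control 3 and model 3), with a median of 0.25, and its most abundant genes were Nfe2l2 at 0.28 (SE 0.39) and Lpcat3 at 0.22 (SE 0.23).

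Per kilobase of merged exons, the scale on which levels of different genes can be compared, Fth1 led with 1325 ± 1118 CPM per kilobase in control and 2837 ± 1977 in model tissue, followed by Ftl1 with 162 ± 66.1 and 253 ± 128 (SD, n = 3). Fth1 exceeded Ftl1 in every library, at the closest by 276 to 101 CPM per kilobase in control 3. The other 8 genes lay in control between Aco1, at 51.9 ± 16.1, and Cybrd1, at 8.66 ± 7.77 CPM per kilobase. Between them stood Slc40a1 at 51.3 ± 51.2, Heph at 48.5 ± 9.98, Epas1 at 32.8 ± 7.94, Tfrc at 30.3 ± 1.59, Slc11a2 at 21.9 ± 14.8 and Ireb2 at 19.9 ± 9.16 CPM per kilobase. Heph exceeded Epas1, and Ireb2 exceeded Cybrd1, by more than either SD, and the other neighbours in this order differed by less than the larger of their SDs. In model tissue Heph, at 60.3 ± 7.71, Slc40a1, at 59.5 ± 25.5, and Aco1, at 59.0 ± 4.13, were close, and Cybrd1 was again the lowest, at 24.9 ± 15.3 CPM per kilobase. The order at the top turned with the length used: with the longest transcript in place of merged exons the mean over the 6 libraries was 127 for Slc40a1, 87.9 for Heph and 65.0 for Aco1, against 55.4, 54.4 and 55.4.

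The profile over the 6 libraries was compared between genes by the root mean square difference of log2 CPM after each gene's own mean was subtracted, as a description. The measure is not scaled by a gene's spread, so genes that vary little lie close to each other whatever their order of libraries. Within the 10, the closest pairs were Heph with Aco1 (0.23), Epas1 with Ireb2 (0.24), Heph with Epas1 (0.26) and Cybrd1 with Fth1 (0.28). Of the closest pair, Heph was highest in model 1 and Aco1 in control 1. Among 9336 other tested genes with a mean of at least 10 CPM, Slc11a2 was closest to Bcl2l14 (0.19), Nadk2 (0.20) and Xkr9 (0.24). Cybrd1 was closest to Acaa2 (0.25), a mitochondrial enzyme of fatty acid oxidation, Sp5 (0.26) and Cyp2c68 (0.27). Slc40a1 had no equally close gene, with Gm2061 at 0.34, the chemokine gene Ccl20 at 0.37 and the plasma membrane calcium pump Atp2b1 at 0.44. The flat profile of Tfrc was matched by Prpf38b (0.027), Cert1 (0.040) and Wac (0.047).

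Promoter windows from 250 bases before to 50 bases after the start site, from RefSeq on GRCm38.p6, were found for 6 of the 10 genes, Cybrd1, Tfrc, Fth1, Ftl1, Aco1 and Ireb2. The core of the hypoxia response element, ACGTG or GCGTG on either strand, was present in a window of 4 of these 6 (Cybrd1, Tfrc, Fth1 and Ftl1), against 46.7% of all symbols in that table. A match of so short a motif is a description of the letters and not a binding site.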

How the data were processed

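Poly-A RNA from 6 libraries of frozen mouse small intestine was sequenced, per the labels' protocols. The reads went through FastQC, Trimmomatic, STAR and featureCounts with build GRCm39, per the submitters' processing notes. No source used here gives versions, annotation, strand or multi-mapping settings, so genes with near-identical copies (Fth1, Ftl1) and overlapping genes, possibly the genes listed at 0 or near 0, are uncertain. The authors deposited raw read counts per gene symbol. All 6 columns were matched to samples by library name and 0 columns were left unmatched.

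Genes were kept by filterByExpr (15904 of 33017), scaled by TMM and tested with edgeR 4.0.16 (R 4.3.3, quasi-likelihood F test, robust, group as the only term), with Benjamini-Hochberg adjustment over all tested genes at 0.05. SE was obtained as |log2 fold change| over the root of the F statistic. The test was checked on simulated data. No within-group pair of libraries was a duplicate (chi-square per degree of freedom at least 111). Gene lengths are merged exons of GENCODE M21, matched for 15367 tested genes. The 10 genes and all lists were chosen with earlier results of these data known. Besides genes said to be named after their values were seen, the named genes follow a rule. It covers the 10 genes, the 2 most abundant others of each iron list, and the 3 closest profiles of Slc11a2, Cybrd1, Slc40a1 and Tfrc. One gene that this rule names is not reported here. Alternatives were DESeq2 1.42.0, limma-voom 3.58.1, other scalings, filters and dispersions, a replicate block, and libraries left out.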

Additional observations from a re-analysis of the deposited data

How the results depend on the processing

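No setting called an iron gene: the smallest adjusted p over all 18 settings was 0.55, for Epas1 with DESeq2. With a replicate block, the replicate numbers of the labels as a term, all 10 iron genes had a fold change above 0, 0 genes were called, 537 genes had an unadjusted p under 0.05 and the median of the iron genes was 0.66. The numbers were not taken to pair the libraries: deviations of same-numbered libraries from their group means correlated at -0.084, -0.297 and 0.326.

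DESeq2 called 25 genes where edgeR called 0. Genes at an unadjusted p under 0.05 numbered 428 with a filter of 5 CPM in 3 libraries (fewer genes tested), 377 to 991 when each library was left out, and 297 without control 3 and model 3, where the cause was not tested. Iron genes with all model above all control libraries numbered 8 without control 2, 3 without model 2, and 1 when any other single library was left out. They numbered 2 without control 3 and model 1. The cause was not tested. Leaving out libraries can only keep or raise such a count. The share of all tested genes with such groups was not computed for these fits, so the counts cannot be judged against it. Without control 3 and model 1 the number of iron genes above 0 was 6 and their median 0.17. The median was 0.30 to 1.11 when each library was left out.

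Reversed signs were those of Slc40a1 (-0.18 to 1.47 when each library was left out, -0.34 without control 3 and model 1), Tfrc (-0.080 to 0.18 when each was left out, -0.016 with the upper quartile, -0.13 with library size alone, -0.044 without control 3 and model 3, 0.22 without control 3 and model 1), Aco1 (-0.024 to 0.41 when each was left out, -0.080 without control 3 and model 3, -0.064 without control 3 and model 1), and Fth1 (-0.13) and Ftl1 (-0.098) without control 3 and model 1, which were highest, at 1.97 and 1.01, without control 2. The cause was not tested. Slc11a2, Cybrd1, Heph, Epas1 and Ireb2 kept their sign in all 18 settings. With the longest transcript as length the mean level per kilobase was 127 in place of 55.4 for Slc40a1, 87.9 in place of 54.4 for Heph, 39.1 in place of 30.9 for Tfrc and 44.6 in place of 27.1 for Ireb2. Data for model against control were simulated on 15679 genes, each with the spread typical of genes at its level and not its own measured spread. Of the genes changed by 1 on the log2 scale 15% were called, and 100% of those changed by 3. Libraries of a group were simulated without outlying ones such as control 3, so these shares need not hold for the iron genes.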
